A study of Mus musculus with 2 samples.

Results

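The 7 genes described here encode the B7 family ligands Cd80, Cd86, Cd274, Pdcd1lg2 and Icosl, the receptor Cd40 and the maturation marker Cd83. They were taken by name from the raw transcript tables, which list 17751 genes, and were followed across the 20 clusters of splenic CD11c+ MHCII+ cells. The cells came from pooled spleens of female C57BL/6 mice aged 8 weeks that were either WT or Batf3-/-, which lack a transcription factor on which cDC1 development depends. T and B cells were depleted and live cells were sorted before droplet sequencing of transcripts and surface antibody tags, and none of the 7 proteins was among the tagged targets. Each genotype was 1 library, so no test between genotypes was possible, and every interval given here is a 95% interval for counting error only.

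Dendritic cells present antigen together with costimulatory ligands that set how a T cell responds. CD80 and CD86 bind CD28, which activates the T cell, and CTLA4, which restrains it. PD-L1 (Cd274) and PD-L2 (Pdcd1lg2) bind the inhibitory receptor PD1, and ICOS ligand (Icosl) binds ICOS on activated and follicular helper T cells. CD40 receives CD40 ligand from activated T cells and signals through TRAF adaptors and NF-kappaB, whereas CD83 is a membrane protein of mature dendritic cells that keeps MHC class II and CD86 at the surface by opposing the ubiquitin ligase MARCH1. Mature dendritic cells are textbook carriers of these molecules, and CCR7 guides such cells to T cell zones.

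The WT library held 12224 cells and the Batf3-/- library 12119, with medians of 8374.5 and 8516 unique molecular identifiers (UMIs, each 1 captured transcript) per cell. Batf3 was at 206 CPM (a gene's UMIs divided by all UMIs of the group and multiplied by 1e+06) in WT and 2.49 in Batf3-/-. In all, 56 cell barcodes occurred in both libraries. Clusters C4 (immature), C6 (mitotic) and C12 (mature) carry the study's cDC1 names, C0 and C8 are immature and mature cDC2a, C2 and C11 are immature and mature cDC2b, C1 is the mature Il4i1+ cDC2 and C3 the Sox4+ cDC. The 6 cDC1 markers Xcr1, Clec9a, Cd8a, Irf8, Tlr3 and Cadm1 summed to 3650, 3146 and 962 CPM in WT C4, C6 and C12 and to 46.7 to 158 CPM in WT C0, C1 and C8. In plasmacytoid C14 and monocyte C15 of WT they summed to 3337 and 1147 CPM, above C12, and Tlr3 was lower in WT C12 (1.68 CPM) than in C0 (4.72). The defining T cell markers Cd3d, Cd3e and Cd3g stayed between 2.17 and 2.70 CPM in sum in WT C1, C8 and C12, whereas the NK list summed to 60.0 to 291 CPM there, nearly all of it Klrd1. Mature clusters had been named in part from costimulatory transcripts and Ccr7, and all clusters were built from these transcripts, so the ratios between clusters are descriptions. Batf3-/- cells were few in C4 and C12, with 31 in each against 2202 and 394 WT cells.

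The genes lie at 5 chromosomes of the GRCm38 mouse genome. Cd274 (chromosome 19, 29367455 to 29388095, plus strand) and Pdcd1lg2 (chromosome 19, 29410919 to 29471161, plus strand) are neighbours, 22823 bp apart with no annotated gene between them. Cd80 (chromosome 16, 38455561 to 38496335, plus strand) and Cd86 (chromosome 16, 36603869 to 36666081, minus strand) share a chromosome but are 1789479 bp apart. Icosl is on chromosome 10 (78069302 to 78083913), Cd40 on chromosome 2 (165055627 to 165072948) and Cd83 on chromosome 13 (43784775 to 43803132), each on the plus strand. Annotated antisense genes overlap Cd274 and Pdcd1lg2 on the opposite strand, and of these A930007I19Rik at Pdcd1lg2 is also in the count tables.

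RefSeq promoter sequences were at hand for 4 of the 7 genes, and they are shown so that the ligands with a shared or a distinct cluster pattern can be compared by their upstream letters. Each line gives the plus strand upstream of the RefSeq start in build GRCm38.p6, with capitals at matches on either strand to a loose kappaB form (GGG and CC with any 5 bases between them) or to TGANTCA (AP-1). The Icosl stretch (chr10:78069118-78069301) ends where the annotated first exon begins, and the Cd80 stretch (chr16:38458683-38458932) lies inside the gene because GENCODE also annotates a start 3372 bases further upstream.
Icosl: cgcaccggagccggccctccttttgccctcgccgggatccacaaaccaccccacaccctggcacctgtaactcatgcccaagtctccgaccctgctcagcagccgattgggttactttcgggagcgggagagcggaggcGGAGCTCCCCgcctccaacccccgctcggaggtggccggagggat
Cd80: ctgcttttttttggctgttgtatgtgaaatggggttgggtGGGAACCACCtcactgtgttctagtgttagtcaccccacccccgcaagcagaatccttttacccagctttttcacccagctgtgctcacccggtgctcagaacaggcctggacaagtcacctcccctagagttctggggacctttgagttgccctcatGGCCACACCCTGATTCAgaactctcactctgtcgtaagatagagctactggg
Cd274 (chr19:29367188-29367437): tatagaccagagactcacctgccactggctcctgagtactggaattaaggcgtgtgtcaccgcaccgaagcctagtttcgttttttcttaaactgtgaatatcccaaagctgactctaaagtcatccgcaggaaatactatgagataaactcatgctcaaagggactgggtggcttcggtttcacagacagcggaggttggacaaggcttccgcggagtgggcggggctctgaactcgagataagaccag
Pdcd1lg2 (chr19:29410669-29410918): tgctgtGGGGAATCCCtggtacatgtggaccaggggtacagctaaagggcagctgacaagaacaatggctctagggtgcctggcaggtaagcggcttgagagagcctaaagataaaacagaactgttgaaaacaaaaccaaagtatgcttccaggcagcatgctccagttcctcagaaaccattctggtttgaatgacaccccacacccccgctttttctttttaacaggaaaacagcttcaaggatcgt
The Icosl stretch held 1 loose kappaB match, Cd80 held 2 and an AP-1 match directly beside the second, and Pdcd1lg2 held 1, GGGGAATCCC, between 244 and 235 bases upstream. Neither motif was found in the Cd274 stretch. Of 32851 mouse promoters of 250 bases, 45.8% held the loose kappaB form and 6.75% the AP-1 form. Searches for an interferon response core (GAAA and GAAA with any 2 bases between), an Ets-IRF element (GGAA and GAAA with any 2 bases between) and a STAT element (TTCNNNGAA) gave no match in any of the 4 stretches, and these occurred in 2.98%, 2.30% and 7.02% of promoters. The matches describe letters only.

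**Figure D1:**
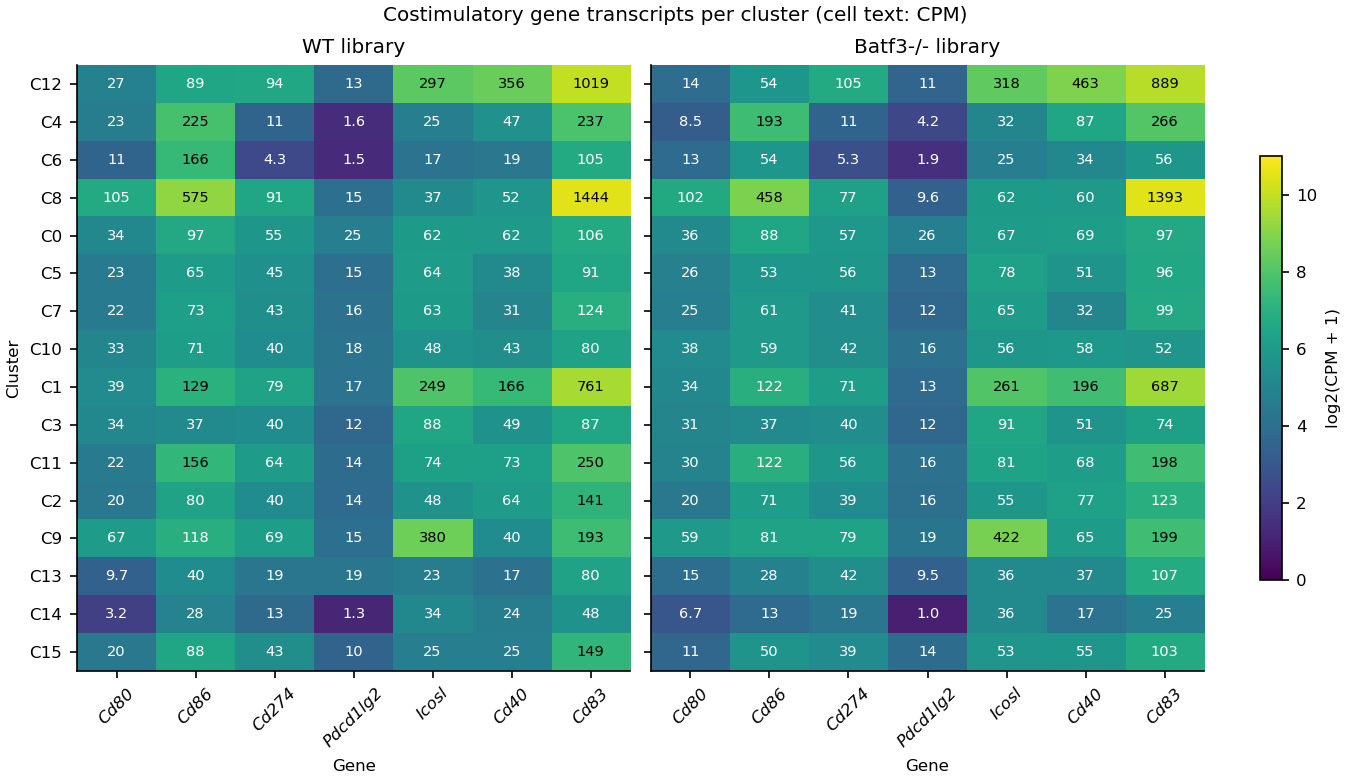
CPM of the 7 genes (columns) in the 16 clusters named in the rows, for the WT (left) and Batf3-/- (right) library; color is log2(CPM + 1). Cd83 is brightest in C8, C12 and C1, Icosl in C9, C12 and C1, Cd40 in C12 and C1, and Cd86 and Cd80 in C8.

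The CD28 ligands had their highest levels in mature cDC2a. Cd86 was at 575 CPM in C8 in WT (interval 552 to 599) and 458 in Batf3-/-. Its next highest cluster was resting cDC1, C4, with 225 CPM in WT and 193 in Batf3-/-, above all other clusters with at least 100 cells beyond counting error. Mature cDC1 did not share this: in C12, Cd86 was at 89.0 CPM in WT and 54.2 in Batf3-/-. Cd80 was at 105 CPM in WT C8 and 102 in Batf3-/- C8, and at 27.3 and 14.5 CPM in C12. C9 was second, at 67.2 and 59.1 CPM. From C1 down to C15 in WT, 11 clusters lay between 38.6 and 20.1 CPM of Cd80, and each overlapped its neighbour in that order. Among clusters with at least 100 cells, plasmacytoid dendritic cells (C14) had the lowest Cd80, 3.20 CPM in WT and 6.71 in Batf3-/-. These levels came from 5 and 7 UMIs, and their intervals overlapped the next cluster, C16 in WT and C4 in Batf3-/-.

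The PD1 ligands, whose genes are adjacent, were highest in different clusters. Cd274 was at 94.0 CPM in WT C12, 90.7 in C8 and 79.0 in C1, with overlapping intervals, and at 105, 76.5 and 71.2 CPM in the Batf3-/- library. C9 was at 68.9 CPM (49.4 to 93.4) in WT and 78.8 (61.2 to 99.8) in Batf3-/-, which overlapped these 3 clusters. Among clusters with at least 100 cells, resting and mitotic cDC1 held the least, with 10.8 CPM in WT C4, whose interval overlapped that of C14, and 4.35 in WT C6. Pdcd1lg2 was highest in resting cDC2a, with 25.3 CPM in WT C0 and 25.7 in Batf3-/- C0, but the next cluster overlapped it in both libraries, C13 in WT (18.7 CPM, 12.5 to 26.9) and C9 in Batf3-/- (18.5, 10.6 to 30.1). Among those clusters it was lowest in C4, C6 and C14 in WT, at 1.61, 1.53 and 1.28 CPM. In the cells of C13 labelled T, NK, NKT or ILC, Pdcd1lg2 was at 27.2 CPM in WT and 4.98 in Batf3-/-, against the 25.3 and 25.7 CPM of C0.

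Icosl and Cd40 were both high in mature cDC1 and Il4i1+ cDC2, although C9 had the highest Icosl level. Icosl was at 297 CPM in WT C12 and 249 in WT C1, and at 318 and 261 CPM in Batf3-/-. It was at 37.4 and 62.4 CPM in mature cDC2a (C8), at or under the 61.9 and 67.4 CPM of resting C0. Cd40 was at 356 CPM in WT C12 and 166 in WT C1, with 463 and 196 in Batf3-/-. C12 and C1 ranked first and second for Cd40 in both libraries, with no overlap of neighbouring intervals. Mature cDC2a had 51.6 CPM of Cd40 in WT and 60.1 in Batf3-/-, inside the range of the resting cDC2 clusters.

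The highest Icosl value was in C9, a cDC2 cluster that the study names by its mitochondrial transcripts, with 380 CPM in WT and 422 in Batf3-/-. These cells were shallow, with medians of 1467 and 1487 UMIs, and held 0.604 and 0.689 Icosl UMIs per cell against 1.72 and 1.94 in C1. At equal depth 27.3% of WT C9 cells and 33.5% of Batf3-/- C9 cells had an Icosl UMI, against 22.9% and 24.6% in C1 and 30.3% in WT C12. In Batf3-/- the CPM intervals of C9 and C12 overlapped (379 to 467 and 255 to 392). The part of low RNA content in the C9 level was not tested.

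Cd83 was highest in C8, C12 and C1. It was at 1444 CPM in WT C8, 1019 in C12 and 761 in C1, and at 1393, 889 and 687 CPM in the Batf3-/- library. The order C8, C12, C1 was the same in both libraries and no neighbouring intervals overlapped. The next highest clusters, mature cDC2b (C11) and C4 in WT, were at 250 and 237 CPM and could not be told apart. C13 cells labelled T, NK, NKT or ILC held 62.0 CPM in WT and 113 in Batf3-/-, and C0 held 106 and 97.2.

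Across 18 clusters with at least 25 cells per library, the levels of the 2 libraries had Pearson r of 0.977 for Icosl, 0.961 for Cd274, 0.936 for Cd40, 0.911 for Cd83, 0.885 for Cd80, 0.746 for Pdcd1lg2 and 0.728 for Cd86 on log2(CPM + 1). The libraries were clustered together, so these values are a description. Each gene was highest in the same one of these clusters in both libraries.

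**Figure D2:**
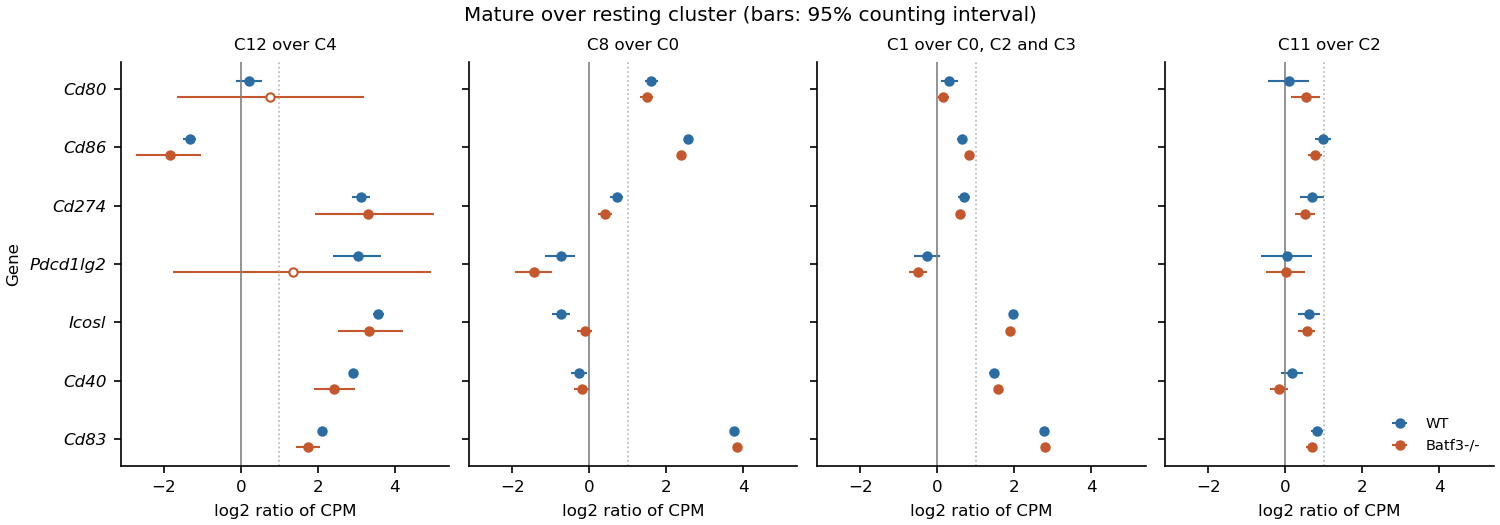
Log2 ratio of CPM (x axis) of each gene in a mature over a resting cluster, WT in blue and Batf3-/- in orange; bars are 95% counting intervals, open points had fewer than 20 UMIs and the dotted line is 2-fold. Cd86 lies left of 0 only in C12 over C4, and Cd83 lies right of 0 in every panel.

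Mature cDC1 held more Icosl, Cd274, Pdcd1lg2, Cd40 and Cd83 than resting cDC1, and less Cd86. In WT, 5 of 7 genes were at least 2-fold higher in C12 than in C4, where 15.0% of 11397 genes with at least 20 UMIs were. Icosl was 297 against 25.02 CPM, a fold of 11.9 (10.8 to 13.1). Cd274 was 94.0 against 10.8 CPM, a fold of 8.73 (7.44 to 10.2), and Pdcd1lg2 was 13.1 against 1.61 CPM, a fold of 8.16 (5.27 to 12.5). The Pdcd1lg2 ratio rests on 39 and 55 UMIs. Its C12 level was not above that of the NK, ILC and T cell cluster C13 in WT (18.7 CPM, 12.5 to 26.9). Cd40 was 7.59-fold (7.02 to 8.21) and Cd83 4.29-fold (4.12 to 4.48) higher. The median log2 ratio of the 7 genes was 2.92, and that of all genes was -0.24. The macrophage markers were also higher in WT C12, summing to 167 CPM against 30.4 in C4, of which Vcam1 was 156 and 15.4, Adgre1 8.09 and 8.14 and C1qa 3.37 and 6.85. The monocyte markers summed to 52.6 and 330 CPM. The part of these markers in the ratios was not tested.

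Cd86 went the other way in cDC1. It was 89.0 CPM in C12 against 225 in C4, a fold of 0.396 (0.349 to 0.448). Of 11397 genes, 24.2% were at least 2-fold lower in this comparison, so a fall of this size was not particular to Cd86. Cd80 was 27.3 against 23.4 CPM, with a log2 ratio of 0.22 (-0.13 to 0.55). C4 cells were also deeper, with a median of 15398.5 UMIs against 6887.5. Counted per cell, Cd86 was at 0.670 UMIs in C12 and 3.49 in C4, whereas Cd83 was at 7.68 and 3.68 and Cd40 at 2.68 and 0.727. Fewer transcripts per cell and a smaller share of the transcripts pointed the same way for Cd86.

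In the 31 and 31 Batf3-/- cells of C12 and C4, 5 genes reached 20 UMIs and 4 of them were at least 2-fold higher, against 16.5% of 4220 genes. Pdcd1lg2, with 3 and 2 UMIs, and Cd80, with 4 and 4, did not reach 20. Icosl was 318 against 31.9 CPM, Cd274 105 against 10.6, Cd40 463 against 87.1 and Cd83 889 against 266. Cd86 was 54.2 against 193 CPM, a log2 ratio of -1.83 (-2.73 to -1.04), where 27.3% of genes were at least 2-fold lower. The summed cDC1 markers were 900 and 2626 CPM in these cells and 962 and 3650 CPM in WT. In Batf3-/- C12 most of that sum was Irf8 (673 CPM against 454 in WT), whereas Xcr1 was at 7.23 against 39.8, Clec9a at 7.23 against 46.2, Cadm1 at 3.62 against 70.1, Cd8a at 210 against 350, and Tlr3 had 0 UMIs. In Batf3-/- C4, Xcr1 was at 259 against 509 CPM and Cadm1 at 136 against 298, whereas Cd8a was at 521 against 442. The macrophage markers summed to 105 CPM in Batf3-/- C12 and 82.9 in C4. The part of these markers in the ratios was not tested. With these cells thinned to 1000 UMIs the log2 ratio was 0 for Cd86, 1.00 for Cd274, 0.26 for Cd83 and 2.22 for Cd40, from 31 cells a side.

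Mature cDC2a held more Cd83, Cd86 and Cd80 than resting cDC2a. In WT, 3 of 7 genes were at least 2-fold higher in C8 than in C0, against 7.15% of all genes, and in Batf3-/- the count was 3 of 7 against 7.24%. Cd83 was 1444 against 106 CPM in WT, a fold of 13.6 (12.98 to 14.3), and 1393 against 97.2 in Batf3-/-, a fold of 14.3. Cd86 was 5.91-fold higher (5.57 to 6.27) in WT and 5.22-fold in Batf3-/-, and Cd80 was 3.07-fold (2.73 to 3.46) and 2.83-fold higher. The same 3 genes passed in both libraries. The monocyte markers were also higher in C8, summing to 211 CPM against 34.8 in WT and 317 against 47.2 in Batf3-/-, with Lyz2 at 166 against 18.98 and 251 against 16.8, and Ly6c2 at 0.965 against 0.825 and 2.35 against 0.183. Their part in the ratios was not tested.

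The other 4 genes were not 2-fold higher in mature cDC2a. Cd274 was 1.65-fold and 1.34-fold higher. Cd40 had log2 ratios of -0.25 and -0.19, and Icosl of -0.73 (-0.98 to -0.49) in WT and -0.11 (-0.30 to 0.08) in Batf3-/-. Pdcd1lg2 was lower in C8, at 15.2 against 25.3 CPM in WT and 9.62 against 25.7 in Batf3-/-. The Batf3-/- ratio was past 2-fold lower, a fold of 0.374 (0.265 to 0.514), where 6.71% of all genes were. The median log2 ratio of the 7 genes was 0.73 in WT and 0.42 in Batf3-/-, against -0.11 and -0.13 over all genes.

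The Il4i1+ cDC2 held more Cd83, Icosl and Cd40 than resting cDC2. Compared with the pooled resting clusters C0, C2 and C3, 3 of 7 genes were at least 2-fold higher in WT C1, against 9.65% of all genes, and 3 of 7 in Batf3-/- C1, against 11.4%. Cd83 was 6.87-fold (6.57 to 7.18) higher in WT and 6.99-fold in Batf3-/-. Icosl was 3.94-fold (3.67 to 4.22) and 3.69-fold higher, and Cd40 was 2.77-fold (2.55 to 3.00) and 2.97-fold higher. C0 serves as a resting side here and in cDC2a, so these comparisons share cells. The pooled resting side was a different mix in each library, so folds of the 2 libraries have unlike resting sides. C0, C2 and C3 held 17.8%, 6.76% and 5.04% of all UMIs in WT, and 19.1%, 13.4% and 13.2% in Batf3-/-. In WT the monocyte markers summed to 129 CPM in C1 against 34.8, 3330 and 232 in C0, C2 and C3. The plasmacytoid markers summed to 178 CPM against 187, 281 and 1203, and the NK markers to 157 against 385, 344 and 811. The part of these markers in the ratios was not tested.

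Cd86 and Cd274 lay between. Cd86 was 1.56-fold higher in WT C1 and 1.79-fold in Batf3-/- C1. It was at 129 CPM in WT C1 and 122 in Batf3-/- C1, and at 82.9 and 68.2 on the pooled resting sides. Against C3 alone its log2 ratio was 1.81 in WT and 1.73 in Batf3-/-. Cd274 was 1.62-fold and 1.51-fold higher, and Cd80 1.24-fold and 1.12-fold. Pdcd1lg2 had a log2 ratio of -0.25 (-0.59 to 0.07) in WT and -0.50 (-0.73 to -0.27) in Batf3-/-. Against C2 alone it was 0.34 in WT and -0.25 in Batf3-/-, and against C3 alone 0.49 and 0.19.

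In cDC2b, no gene reached 2-fold in C11 over C2, where 5.70% of all genes in WT and 5.32% in Batf3-/- did. Cd86 came nearest, with 156 against 79.5 CPM in WT, a fold of 1.97 (1.70 to 2.27), and 122 against 71.4 in Batf3-/-, a fold of 1.71. Cd83 was 1.78-fold and 1.61-fold higher. C11 and C2 also carried monocyte markers (Lyz2, Ly6c2, Csf1r and Cd14), which summed to 6163 and 3330 CPM in WT, and macrophage markers (Adgre1, Vcam1 and C1qa), which summed to 1338 and 115 CPM in WT and 1043 and 107 in Batf3-/-. The part of monocyte-like and macrophage-like cells was not tested. In WT C11, the 20 cells labelled macrophages held 268 CPM of Cd86 (188 to 369) and those labelled DC 156 (134 to 180), and in Batf3-/- C11 the values were 180 and 119. Among WT C2 cells, those labelled DC held 178 CPM of Cd83, 62.0 of Icosl and 48.9 of Cd274, and those labelled monocytes 83.3, 26.6 and 25.4.

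**Figure D3:**
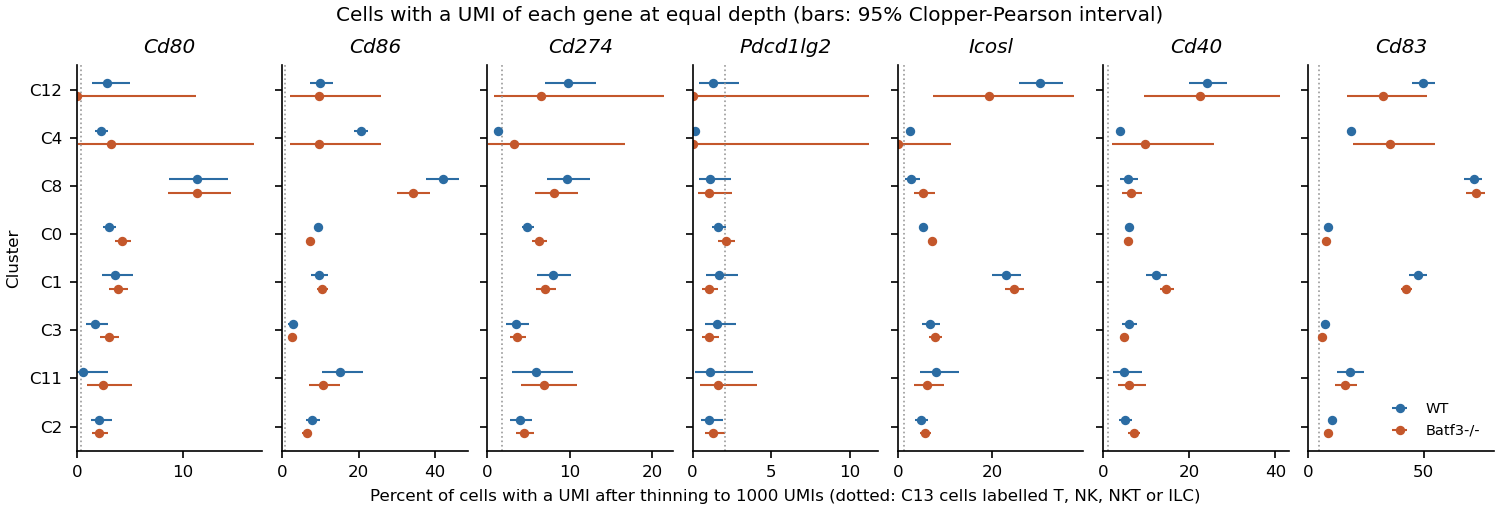
Percent of cells (x axis) with at least 1 UMI of each gene after every cell was thinned to 1000 UMIs, in 8 clusters, WT in blue and Batf3-/- in orange; bars are 95% Clopper-Pearson intervals and the dotted line is the share in C13 cells labelled T, NK, NKT or ILC. Pdcd1lg2 shares lie below that line in WT C0, C1, C4, C8 and C12, and Cd83 reaches 71.6% in WT C8.

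At equal depth the same split appeared in the share of cells. For this, 1000 UMIs were drawn from each cell, and 28 WT and 42 Batf3-/- cells were too shallow to be used. Cd83 was found in 71.6% of WT C8 cells (67.5 to 75.4), 49.7% of C12, 47.5% of C1 and 8.54% of C0, and in 4.47% of the 291 lymphocyte-labelled C13 cells of both libraries together, which give the comparison shares below. Without thinning, the Cd83 share was 99.1% in WT C8 and 34.4% in C0, against 16.2% in those C13 cells, whose median was 4317 UMIs. Cd86 was found in 42.0% of WT C8 cells, 20.6% of C4 and 10.0% of C12, against 0.687% of the lymphocyte-labelled cells. Icosl was found in 30.3% of WT C12 cells, 22.9% of C1 and 2.82% of C8, against 1.37%. Cd40 was found in 24.1% of WT C12, 12.2% of C1 and 5.84% of C8 cells, against 1.03%.

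The remaining shares were small. Cd80 was found in 11.3% of WT C8 cells and of Batf3-/- C8 cells, and in 0.344% of the lymphocyte-labelled cells. Cd274 reached 9.74% in WT C12 and 9.60% in C8, against 1.72%. Pdcd1lg2 was found in at most 2.56% of cells in any WT cluster, against 2.06% of the lymphocyte-labelled cells. The level of those cells differed between the libraries, so they are not a shown background for this gene. No share of Pdcd1lg2 was read as expression at this depth. In WT C4 and C6 the share was 0.136% and 0.251%, and in WT C0 52 of 3175 cells had a UMI.

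In C8, C1 and WT C12, more cells held several of the 7 genes at once than in C0. At equal depth, 12.6% of WT C8, 10.0% of WT C12 and 5.69% of WT C1 cells had 3 or more of them, against 0.409% of C0 and 1.00% of C4. The Batf3-/- shares were 11.1% in C8, 5.91% in C1 and 0.440% in C0, and 6.45% in both C12 and C4, which had 31 cells each. Numbers of cells with both genes of a pair were set beside the product of their shares. Cd40 and Cd83 were both found in 55 of 390 WT C12 cells, where the product gave 46.8, and in 131 of 1844 Batf3-/- C1 cells, where it gave 115. Cd80 and Cd86 were both found in 27 of 531 WT C8 cells, where it gave 25.2. Cd86 and Cd40 were both found in 17 WT C1 cells, where it gave 8.43, in 38 Batf3-/- C1 cells, where it gave 28.5, and in 14 WT C12 cells, where it gave 9.40. Cd274 and Icosl were both found in 8 WT C12 cells, where it gave 11.5.

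Cells with a Ccr7 UMI, the marker of migratory dendritic cells, were compared with their cluster mates. In thinned WT C8 cells, 112 with Ccr7 had 2321 CPM of Cd83 against 1508 in the 419 without, a log2 ratio of 0.62 (0.41 to 0.83), and Batf3-/- C8 gave 0.74 (0.54 to 0.94). Cd274 in C8 was 196 against 83.5 CPM in WT, a log2 ratio of 1.23 (0.39 to 2.04), and 151 against 55.2 in Batf3-/-, a log2 ratio of 1.45. Icosl in C8 had 1.71 (0.015 to 3.37) in WT and 1.78 (0.49 to 3.20) in Batf3-/-, from 7 UMIs with and 8 without Ccr7 in WT and 17 and 8 in Batf3-/-. Cd40 had 1.17 (0.00067 to 2.27) and 0.70 (-0.40 to 1.79). A Ccr7 UMI was found in 21.1% of WT C8 cells and 38.2% of Batf3-/- C8 cells. In C1, about equally split by Ccr7 (49.7% and 51.3% with it), only the Cd83 intervals excluded 0, with log2 ratios of 0.25 in WT and 0.32 in Batf3-/-. In WT C12, where 74.6% of cells had a Ccr7 UMI, Cd83 had 0.59 (0.21 to 0.99), and the intervals of the other 6 genes held 0, with -0.14 for Icosl and -1.29 for Cd80. In resting WT cDC1 (C4), the 64 cells with Ccr7 had 141 CPM of Icosl against 23.9, a log2 ratio of 2.56 (1.35 to 3.60), and 156 of Cd40 against 40.7. Cd86 was also higher in those C4 cells, 391 against 233 CPM, a log2 ratio of 0.75 (0.11 to 1.33). With 10 Cd40 and 9 Icosl UMIs in those 64 cells, these ratios rest on few counts. In cDC2b, Cd83 had 2.61 (1.68 to 3.49) in WT C11 and 2.02 (1.14 to 2.80) in WT C2. The Batf3-/- values were 1.70 and 2.66. Icosl had 1.91 (-0.16 to 3.60) and 0.51 (-2.58 to 2.44) there in WT, and 2.62 and 2.10 in Batf3-/-. Cells with Ccr7 were few, 14 and 28 in WT and 24 and 49 in Batf3-/-. In C0, Cd83 had 0.54 (-0.69 to 1.53) in WT and 1.65 (0.72 to 2.45) in Batf3-/-.

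**Figure D4:**
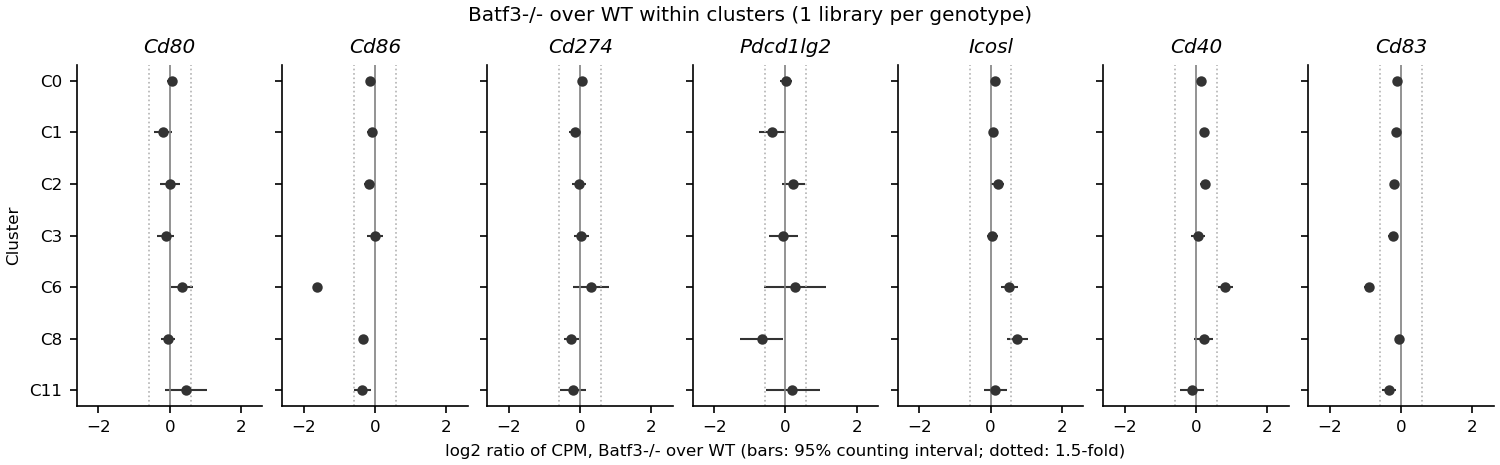
Log2 ratio of CPM in Batf3-/- over WT (x axis) for each gene within 7 clusters (y axis), with 95% counting intervals and dotted lines at 1.5-fold. Most points sit between the dotted lines, and Cd86, Cd83 and Cd40 lie outside them in C6.

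In C0, C1, C2, C3 and C11 no gene was 1.5-fold apart between genotypes, where 7.06%, 10.7%, 7.94%, 7.14% and 13.2% of all genes were. In C1, Cd83 was 761 CPM in WT and 687 in Batf3-/-, and Cd40 was 166 and 196, a log2 ratio of 0.23 (0.12 to 0.35). Small shifts of this kind, with Cd40 higher and Cd83 lower in Batf3-/-, had intervals without 0 in C0, C1 and C2. Cd86 was lower in Batf3-/- in each of the 17 clusters with at least 100 cells, with log2 ratios of -0.15 in C0, -0.15 in C2 and -0.36 in C11, and the interval held 0 in C1, C3, C4, C10, C12 and C13. In C3 the levels were nearly equal, 36.7 CPM in Batf3-/- and 36.8 in WT. No share of all genes with 1 sign over these clusters is given, so this count is a description. Among the other clusters with at least 100 cells, Cd83 was past 1.5-fold in C10, with a log2 ratio of -0.62 (-0.91 to -0.33). Some genes also passed in C4, C9 and C12 to C16. No share of all genes is given for these clusters or for C10. With 1 library a side, genotype, pool and library cannot be told apart.

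In mitotic cDC1 (C6), 3 of 7 genes were 1.5-fold apart, against 17.5% of all genes. Cd86 was 166 CPM in the 797 WT cells and 54.1 in the 727 Batf3-/- cells, a log2 ratio of -1.62 (-1.74 to -1.50). Cd83 was 105 and 56.0 CPM, a log2 ratio of -0.90 (-1.03 to -0.78), and Cd40 was 19.5 and 34.5 CPM, a log2 ratio of 0.82 (0.61 to 1.03). The summed cDC1 markers moved with them, at 3146 CPM in WT C6 and 1253 in Batf3-/- C6, with Xcr1 at 397 and 45.7 CPM and Clec9a at 203 and 82.1. Other lists moved too: the cDC2 markers summed to 21.9 CPM in WT and 63.8 in Batf3-/-, with Itgam at 2.69 and 24.6 and Sirpa at 10.7 and 24.2, the NK cell markers to 32.1 and 117, and the plasma cell marker was at 149 and 1.19. The part of these lists in the differences was not tested. The deposited phases put 98.4% of WT and 74.0% of Batf3-/- C6 cells in S or G2M.

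Cells of C6 were also split by receptor and phase. Among cells with an Xcr1 or Clec9a UMI, Cd86 was 167 CPM in 781 WT cells and 55.2 in 558 Batf3-/- cells. Among cells in S or G2M it was 166 and 50.5 CPM, and among the 13 WT and 189 Batf3-/- cells in G1 it was 129 and 68.9. Cd40 was 19.4 and 28.3 CPM in S or G2M, a log2 ratio of 0.54, which is under 1.5-fold, and 24.9 and 59.5 CPM in G1. The split by receptor and the S or G2M subset were chosen after the levels were seen. Among cells without either receptor, Cd86 was 79.5 CPM in 16 WT cells and 50.2 in 169 Batf3-/- cells, with overlapping intervals of 47.1 to 126 and 42.3 to 59.3, and Cd40 was 8.84 and 37.1 CPM, from 2 UMIs in WT. In C4, whose 31 Batf3-/- cells had 2626 CPM of the cDC1 markers, Cd86 was 193 CPM against 225 in WT, with an interval of the log2 ratio that held 0. Cd40 was 87.1 against 46.8 CPM there, a log2 ratio of 0.90 (0.41 to 1.34), and Cd80 was 8.50 against 23.4, a log2 ratio of -1.46 (-3.34 to -0.10) from 4 Batf3-/- UMIs.

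In mature cDC2a (C8), 2 of 7 genes were 1.5-fold apart, against 10.9% of all genes. Icosl was 37.4 CPM in WT and 62.4 in Batf3-/-, a log2 ratio of 0.74 (0.45 to 1.03). Pdcd1lg2 was 15.2 and 9.62 CPM, a log2 ratio of -0.66 (-1.26 to -0.07) from 63 and 41 UMIs. Cd86 was also lower in Batf3-/- C8, 458 against 575 CPM, a log2 ratio of -0.33 (-0.41 to -0.24). The summed cDC1 markers were 80.1 and 130 CPM in these cells, the monocyte markers 211 and 317 CPM, and Ccr7 was 693 and 1122 CPM, and their part in the Icosl difference was not tested.

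Over whole libraries Cd86 was 150 CPM in WT and 85.5 in Batf3-/-, while Icosl was 59.2 and 90.4, Cd274 34.5 and 46.1, Cd40 57.7 and 73.6, and Cd83 240 and 217. C4 and C6 held 41.8% and 14.1% of Cd86 UMIs in WT, where they held 27.9% and 12.8% of all UMIs, and 0.929% and 7.45% in Batf3-/-, where they held 0.411% and 11.8%. C1 held 17.0% of Icosl UMIs in WT and 34.6% in Batf3-/-, where it held 4.06% and 12.0% of all UMIs. These whole-library values therefore combine cluster sizes with the levels within clusters.

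**Figure D5:**
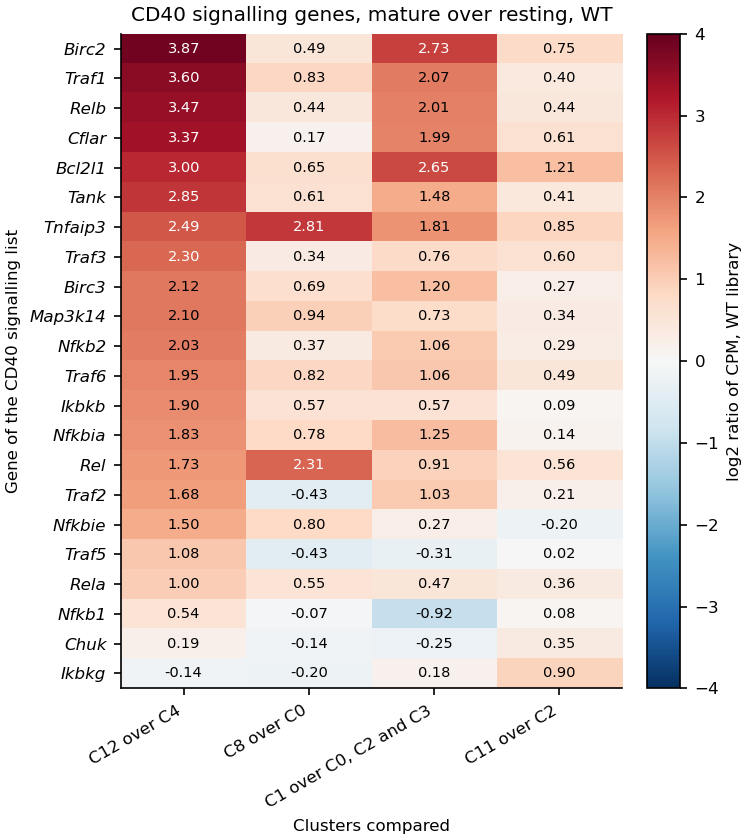
Log2 ratio of CPM in mature over resting clusters (columns) for the 22 genes of the CD40 signalling list (rows, ordered by C12 over C4), WT library; red is higher in the mature cluster. The columns for C12 and C1 are mostly red, and in the column for C8 Tnfaip3 and Rel stand out.

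The CD40 signalling list, 22 genes of the TRAF and NF-kappaB route, was compared in the same cluster pairs. The study named mature clusters in part from TNF signalling genes. It also found a CD40 receptor complex term enriched in C1 and C12, and linked C12 to NF-kappaB signalling. Higher values of this list there therefore give no separate evidence of maturity. In WT, 18 of 22 were at least 2-fold higher and 0 lower in C12 over C4, with a median log2 ratio of 1.99. Over all genes, 15.0% were higher there and 24.2% lower. In C1 over its resting clusters 12 were higher and 0 lower, with a median of 1.05, where 9.65% of all genes were higher and 11.3% lower. In Batf3-/- C12 over C4, 14 of the 19 with at least 20 UMIs were higher. In Batf3-/- C1, 11 were higher and 1, Nfkb1, lower, where 12.4% of all genes were lower. In C8 over C0, where Cd40 did not differ by 2-fold, 2 of 22 were higher in WT, Rel and Tnfaip3, and 3 in Batf3-/-, these and Traf1, but the list medians were 0.56 and 0.67, above those of all genes. In C11 over C2, 1 was higher in WT (Bcl2l1) and 0 in Batf3-/-, with list medians of 0.38 and 0.19. Over all genes, 7.15% were higher in C8 and 5.70% in C11 in WT, and in Batf3-/- the shares were 16.5% in C12, 11.4% in C1, 7.24% in C8 and 5.32% in C11. Over all genes the median log2 ratios in WT were -0.24 for C12 over C4, -0.15 for C1, -0.11 for C8 over C0 and 0.11 for C11 over C2, and in Batf3-/- -0.13 for C8 over C0 and 0.11 for C11 over C2.

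The genes past 2-fold in both C12 and C1 were adaptors, ligases, NF-kappaB subunits, inhibitors and survival genes. The kinase genes Map3k14, Ikbkb and Chuk did not reach 2-fold in WT C1, with log2 ratios of 0.73, 0.57 and -0.25. Ikbkg, Traf5 and Nfkb1 had 0.18, -0.31 and -0.92. In WT C12, Map3k14, Ikbkb and Traf5 were past 2-fold, with 2.10, 1.90 and 1.08, and Chuk, Ikbkg and Nfkb1 were not. Traf1, an adaptor that binds CD40 complexes, was at 1967 CPM in WT C12 against 162 in C4, and 1396 in C1 against 333. Birc2, a ubiquitin ligase of the TRAF complex, was at 583 against 39.7 and 501 against 75.6 CPM. Relb and Nfkb2, which form the non-canonical NF-kappaB dimer, were at 720.5 against 65.0 and 155 against 38.0 CPM in C12, with log2 ratios of 2.01 and 1.06 in C1. The feedback inhibitors Tnfaip3 and Nfkbia had log2 ratios of 2.49 and 1.83 in C12 and 1.81 and 1.25 in C1. The survival genes Bcl2l1 and Cflar had 3.00 and 3.37 in C12 and 2.65 and 1.99 in C1. Birc3, Tank, Traf2 and Traf6 were also at least 2-fold higher in both, with log2 ratios of 2.12, 2.85, 1.68 and 1.95 in C12. Rel, a canonical subunit, was instead highest on the cDC2a side, at 1133 CPM in WT C8 against 228 in C0.

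March1, the ligase that removes CD86 and MHC class II from the surface, was lower in the same clusters. It was at 21.2 CPM in WT C12 against 183 in C4, a log2 ratio of -3.11 (-3.49 to -2.75), and at 35.0 against 139 in C1, a log2 ratio of -1.99 (-2.21 to -1.77). The Batf3-/- library gave -2.45 and -1.89. Over all genes, 24.2% were at least 2-fold lower in WT C12 and 11.3% in WT C1, and 27.3% and 12.4% in Batf3-/-. In C8 over C0, March1 was 104 against 146 CPM in WT, a log2 ratio of -0.50. Cmtm6, which protects PD-L1 from degradation, lay between 29.6 and 57.4 CPM on both sides of these 3 comparisons in both libraries. Of the 4 genes of surface turnover, March8 and Cmtm4 were at or below 17.0 CPM. Small counts put March8 past 2-fold in WT C12 over C4, with a log2 ratio of 1.30 and an interval that holds 0, and Cmtm4 in C11 over C2, with 1.53 in WT and 1.09 in Batf3-/-.

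Receptors of the T cell side were nearly absent apart from Icos. Cd40lg had 0 UMIs in each of the compared clusters, and Cd28, Ctla4 and Pdcd1 were at or below 2.08 CPM. At these levels Ctla4 was lower in WT C12 than in C4, with a log2 ratio of -1.04 (-3.35 to 0.57), and Pdcd1 was higher in Batf3-/- C1, with 3.61 (2.10 to 5.41). Icos transcripts, by contrast, were at 122 CPM in WT C12 against 7.35 in C4 and at 49.9 in C1 against 17.0, with log2 ratios of 4.06 (3.82 to 4.30) and 1.55 (1.34 to 1.77). In Batf3-/- they were at 101 against 14.9 and 54.3 against 21.5 CPM. The 3 Cd3 genes summed to 2.70 CPM in WT C12. Of the other B7 genes, Vsir (VISTA) was lower in WT C1, 35.0 against 75.9 CPM, and in Batf3-/- C1, 31.4 against 69.0. Over all genes, 11.3% in WT C1 and 12.4% in Batf3-/- C1 were at least 2-fold lower. Cd276 was at or below 1.39 CPM, with a log2 ratio of 1.93 (0.94 to 2.93) in Batf3-/- C1. In C11 over C2, Icos had a log2 ratio of 1.16 in WT and 0.81 in Batf3-/-.

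The 10 maturation genes marked the same clusters. All 10 were at least 2-fold higher in WT C12 over C4 and in WT C1, 8 of the 9 with at least 20 UMIs in WT C8 over C0, and 6 in WT C11 over C2, where Ccl17 was lower. Over all genes these shares were 15.0%, 9.65%, 7.15% and 5.70%, and 2.36% were lower in WT C11. In Batf3-/-, 8 were higher and 1 lower in C12 over C4, 10 were higher in C1, 8 in C8 over C0, and in C11 over C2 5 were higher and 2 lower. Over all genes the shares higher were 16.5%, 11.4%, 7.24% and 5.32% there, with 27.3% lower in C12 and 2.32% in C11. Ccr7 was at 1935 CPM in WT C12, 831 in C1 and 693 in C8. Fscn1, Socs2, Ccl22, Cd200, Fas and Il15 passed in C12, C1 and C8, whereas Il15ra had a log2 ratio of 0.18 in C8 against 4.98 in C12. Their WT levels in C8 were far below those in C12. Fscn1 was at 84.0 against 957 CPM, Socs2 at 33.8 against 657 and Ccl22 at 2.65 (11 UMIs) against 247. Cd200 was at 17.1 against 99.1 CPM, Fas at 12.1 against 107 and Il15 at 8.93 against 125. Ccl17 was at 12.1 CPM in WT C12 and 14.1 in WT C1, whereas in Batf3-/- it was at 7.23 CPM in C12 against 249 in C4, from 31 cells a side. Il12b was at 471 CPM in WT C12 and 65.1 in Batf3-/- C12. Ccr7 and Fas were among the features the study read for maturity, and all clusters were built from these transcripts. The list therefore gives no separate evidence of maturity.

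Levels were correlated over the 17 clusters with at least 100 cells. Cd274 and Pdcd1lg2 had a Pearson r of 0.855 on log2(CPM + 1), Icosl and Cd40 0.735, Cd40 and Cd83 0.722, Cd80 and Cd86 0.715, Cd80 and Cd274 0.696, Cd274 and Icosl 0.651, Cd80 and Pdcd1lg2 0.641, and Cd86 and Icosl -0.04. These points share libraries and depth, so r is a description. The nearest genes by r were Pmaip1, Specc1 and Tbc1d9 for Cd80 (0.957, 0.910 and 0.891), Gm6377, Rab43 and Il1b for Cd86 (0.847, 0.817 and 0.80), and Fam49a, Adap1 and Trps1 for Cd274 (0.917, 0.903 and 0.867). For Pdcd1lg2 they were Arl4c, Pgap1 and Cdc42ep2 (0.895, 0.888 and 0.874), and for Icosl Aebp2, Vsig10 and Sbno2 (0.952, 0.941 and 0.937). For Cd40 they were Iscu, Anxa4 and 2200002D01Rik (0.928, 0.920 and 0.883), and for Cd83 Clic4, Nr4a3 and Pim1 (0.904, 0.887 and 0.884).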

How the data were processed

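Spleen cells sorted for CD11c and MHCII were profiled as 1 library per genotype with 10x 3' chemistry, in which UMIs do not scale with transcript length. The authors aligned reads to GRCm38, evened depth between libraries, filtered cells and clustered them with Seurat 3.0.5 (bcl2fastq 2.2.0 for base calls, per the labels). They deposited raw UMI counts per gene and cell, and a table of cells with cluster, label, phase and mitochondrial and ribosomal fraction values. Deposited cells held 501 to 4996 genes. Totals recomputed from the counts matched that table in 24343 of 24343 cells. Deposited normalized and antibody tables were not used.

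Counts were summed per cluster and library and scaled to CPM with exact Poisson intervals. Ratios carry exact conditional binomial intervals and shares carry Clopper-Pearson intervals, all 95% and for counting error only, since 1 library per genotype allows no test. A gene was counted as different past 2-fold between clusters or 1.5-fold between genotypes, among genes with at least 20 UMIs. Shares and splits by Ccr7 used cells thinned to 1000 UMIs. No doublet caller was run, and 1 alternative left out the top 5% of cells by UMIs in each cluster and library. Named genes were the 7 genes, the 3 most alike to each by Pearson r where the gene averaged 10 CPM or more, list genes past 2-fold in both C1 and C12 in WT, and any gene a small count falls on. The genes and lists were chosen with earlier results of these data known. Positions are from GENCODE M21. Ratio and thinning code was tested on simulated data. Python 3.11.15, numpy 2.4.6, scipy 1.17.1, pandas 2.3.3 and matplotlib 3.10.9 were used.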

Additional observations from a re-analysis of the deposited data

Results flagged for a closer look

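Some genes had mature over resting ratios of opposite sign in different cell types, with the same signs in both libraries. In Batf3-/- the negative C8 over C0 ratios of Icosl (-0.11, -0.30 to 0.08) and Cd40 (-0.19, -0.39 to 0.0028) had intervals that held 0. With Batf3-/- cells thinned to 1000 UMIs, the Cd86 log2 ratio of C12 over C4 was 0. That value rests on 31 cells a side, with 15 and 91 Cd86 UMIs before thinning. Thinned WT C12 cells with and without a Ccr7 UMI had 127 and 80.8 CPM of Cd86. Thinned WT C4 cells had 391 and 233. The difference between the ratios was not tested, and the clusters were built from these transcripts. For Cd86, the WT log2 ratio of C8 over C0 exceeded that of C12 over C4 by 3.90, that of C1 over C0, C2 and C3 exceeded it by 1.98, and that of C11 over C2 by 2.31. For Icosl, the WT log2 ratio of C8 over C0 was exceeded by 4.30 in C12 over C4, 2.70 in C1 over its resting clusters and 1.35 in C11 over C2. For Cd40 it was exceeded by 3.18 in C12 over C4 and 1.72 in C1.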

How the results depend on the processing

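No paired analysis was possible because each genotype had 1 library. Of 781 log2 ratios under alternatives, 605 stayed inside the interval of the value reported and 176 left it, and 0 called ratios changed sign. Counts of genes past the fold moved by over 1.5 times as follows. No share of all genes is given under these alternatives. The counts are therefore descriptions and cannot be told from a shift of genes in general. With 1.5-fold in place of 2-fold, C1 gave 5 genes in WT and 5 in Batf3-/-, and C11 over C2 gave 4 and 2. Thinning to 1000 UMIs gave 1 in WT C11 over C2, and between genotypes 1 in C1, 2 in C3, 5 in C6, 1 in C8 and 3 in C11. G1 cells alone gave 1 in WT C11 over C2. Leaving out cells with any B, T or NK marker UMI gave 2 in C2, 4 in C3, 5 in C6, 1 in C8 and 3 in C11 between genotypes. That alternative removed 85.5% of WT C0 and 96.9% of WT C3 cells, since Klrd1 runs through these clusters. The mean of per-cell CPM gave 1 in C11 between genotypes, and C6 cells without Xcr1 or Clec9a, chosen after seeing the data, gave 5 from 16 WT cells. Thinned cells hold few UMIs of Cd80, Cd274 and Pdcd1lg2, which limits those counts, and doublets were not called.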
